A study of Homo sapiens with 6 samples.

Results

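F-box and TRIM proteins are families of ubiquitin ligase subunits that choose which proteins a cell marks with ubiquitin. The members described here are the 120 genes, of 14884 tested, whose platform symbol starts with FBXL, FBXO, FBXW or TRIM followed by a digit. They comprised 16 FBXL, 33 FBXO, 10 FBXW and 61 TRIM genes, read by 154 features. Where a gene had several features, its brightest on average was used. Expression was measured in spheroids of 2 established human colorectal cancer lines, SW480, derived from a primary tumour, and SW620, derived from a lymph node metastasis. Both lines were grown as floating spheres without serum in a medium with growth factors, and no other treatment is named in the labels. Each group had 3 arrays, numbered replicate 1 to 3, which the series' design text calls technical replicates, and each group is 1 line. The p-values therefore measure the spread between such arrays and not between separate cultures. No adherent culture or sorted fraction was among the arrays.

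An F-box protein is typically the interchangeable receptor of an SCF ligase. Its F-box binds SKP1, SKP1 binds the scaffold CUL1, and the rest of the protein holds the substrate. FBXL proteins do so with leucine-rich repeats, FBXW proteins with WD40 repeats, and FBXO proteins carry other or no known domains. Most TRIM proteins are ligases in a single chain, with a RING domain, B-boxes and a coiled coil, followed by a C-terminal part that differs between subfamilies. Many TRIM genes act in innate immunity, and some are switched on by interferon through an element of their promoter.

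That element, the interferon-stimulated response element, was searched for in the promoters because several interferon-linked TRIM genes were among the larger differences. The letters searched were GAAANNGAAA on both strands, in windows of 300 bases (250 before and 50 after each listed start, RefSeq, GRCh38.p14). Of the 120 members 91 matched the promoter table by gene ID. The letters occurred in 10 of the 91 (11%), against 4.38% of 27305 genes with a listed promoter. The 91 held 12 members higher in SW620, 25 lower and 54 that did not pass the test. The letters occurred in 3 of the 12, 3 of the 25 and 4 of the 54. The stretches of the 6 that differed are given so that the higher and the lower genes can be compared. Capitals mark the match, and each stretch reads along the strand of the gene.
TRIM5 (higher, chr11:5685075-5685134, minus strand): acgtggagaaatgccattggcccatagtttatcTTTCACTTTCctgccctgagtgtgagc
TRIM26 (higher, chr6:30213566-30213625, minus strand): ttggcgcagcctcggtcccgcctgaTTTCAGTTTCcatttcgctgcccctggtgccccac
TRIM21 (higher, chr11:4393666-4393695, minus strand): cttctgagcgGAAACTGAAAgtgaaatagg
TRIM14 (lower, chr9:98119223-98119282, minus strand): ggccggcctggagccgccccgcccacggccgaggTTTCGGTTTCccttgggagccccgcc
TRIM16 (lower, chr17:15682997-15683056, minus strand): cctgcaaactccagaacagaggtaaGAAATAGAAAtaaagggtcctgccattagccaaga
TRIM2 (lower, chr4:153151921-153151980, plus strand): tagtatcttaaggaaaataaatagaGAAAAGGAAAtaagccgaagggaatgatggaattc
In TRIM26 and TRIM21 a further match overlaps the marked letters by 4 bases. The match of TRIM21 begins 18 bases into the transcribed stretch and those of the other genes lie before the start. The letters were thus found on both sides of the comparison, in 3 of 12 higher and 3 of 25 lower members. A further interferon element, the STAT-binding letters TTCNNNGAA, occurred in 12 of the 91 (13.2%), against 9.38% of all genes with a listed promoter. These letters were in 0 of the 12 higher members, 4 of the 25 lower and 8 of the 54 that did not pass. A match is a description of the sequence and not a measured binding site.

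The deposited values are log2 expression levels and ran from 1.99 to 13.9, with array medians between 4.04 and 4.07. Across features, which are not independent replicates, r was 0.988 to 0.992 within a line and 0.963 to 0.965 between lines. Of 9 measured colorectal epithelial markers 7 had means above the median feature (4.065) in each line, among them EPCAM (9.71 in SW480 and 9.61 in SW620) and the keratin KRT18 (11.6 and 11.7). The differentiation markers CDX1 (3.84 and 3.80) and KRT20 (4.01 and 4.06) were below it. Of the 9, 3 were higher and 1 was lower in SW620; CDX2, an intestinal identity factor, was the lower (6.22 and 4.68). All 4 measured endothelial markers had means below the median feature, the highest at 3.91, and of 5 leukocyte markers 1 was higher and 1 lower (summed log2 level 24.0 to 24.2 in SW480 and 23.8 to 24.2 in SW620). Of 3 fibroblast markers LUM was higher in SW620 (4.73 and 7.95) while THY1 (4.43 and 4.40) and DCN (3.09 and 3.26) did not pass; the summed log2 level ran from 11.8 to 12.6 in SW480 and from 15.5 to 15.7 in SW620, with LUM as the 1 marker called, and the part of such cells in the results was not tested. In bulk samples, fewer cells with a transcript and less of it per cell cannot be told apart.

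Of the 120 members, 41 differed between the lines at an adjusted p below 0.05 in limma's moderated test (34.2%), beside 35.6% of all genes tested. The members as a whole were therefore called about as often as other genes. Among the 59 F-box genes 5 were higher in SW620 (8.47%, against 16.0% of all genes) and 14 were lower (23.7%, against 19.5%). Among the 61 TRIM genes 9 were higher (14.8%) and 13 were lower (21.3%). The median difference, SW620 minus SW480 on the log2 scale, was -0.0844 for F-box and 0.0332 for TRIM genes, and 0.0132 for all genes. A 2-fold difference was reached by 1 F-box gene (FBXL20, lower) and by 4 TRIM genes, 2 higher and 2 lower, while 2.32% of all genes were called higher and 3.76% lower at that size.

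By family, the FBXL genes had 0 higher and 5 lower of 16, with a median of -0.0673, and 1 of the lower calls was the antisense RNA FBXL19-AS1, which encodes no F-box. The FBXO genes had 5 higher, 7 lower and 21 not past the test of 33, with a median of -0.0491. The FBXW genes had 0 higher, 2 lower and 8 not past of 10, with a median of -0.11. Without the antisense, pseudogene, read-through and near-identical-copy symbols, a choice made after the data were seen, 55 F-box genes gave 5 higher and 13 lower, and 52 TRIM genes gave 9 and 13. Of 90 members at or above the median feature 39 were called (43.3%, against 49.8% of all such genes), and of 30 dimmer ones 2 were (6.67%, against 10.5%). The arrays of the lines did not overlap for 52 of the 120 members (43.3%), against 45.7% of all genes.

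**Figure D1:**
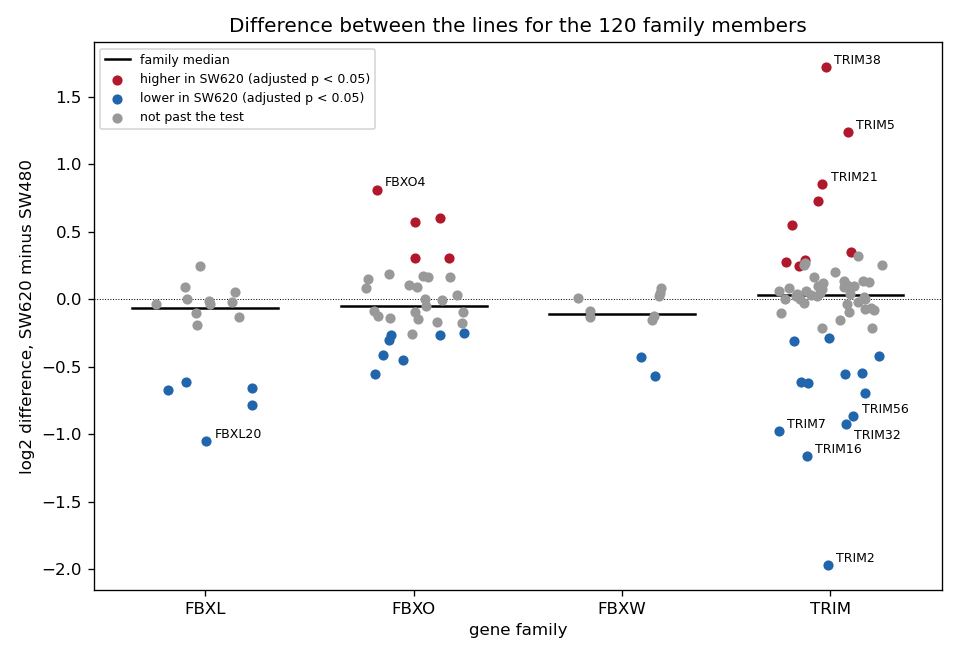
Log2 difference (SW620 minus SW480, y axis) of each of the 120 members, by family on the x axis (points are spread sideways for legibility only). Red points were higher and blue points lower in SW620 at an adjusted p below 0.05, grey points did not pass, black bars are family medians, and named points differ by at least 0.8: TRIM2 (-1.97) and TRIM38 (1.72) lie farthest from 0.

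The largest difference of any member was a fall in TRIM2, a ligase with NHL repeats known from neurons, where it acts on neurofilament light chain. Its level was 8.21, 8.29 and 8.38 on the SW480 arrays and 6.29, 6.27 and 6.40 on the SW620 arrays. All SW620 arrays lay far below all SW480 arrays, a 3.92-fold lower signal (log2 difference -1.97, standard error 0.0859, limma adjusted p = 1.47e-09, n = 3 per line). TRIM32, a further NHL-repeat ligase, mutated in a limb-girdle muscular dystrophy, had levels of 6.69, 6.70 and 6.60 in SW480 and 5.57, 5.99 and 5.66 in SW620. The groups did not overlap, and it was 1.90-fold lower (-0.92, standard error 0.108). TRIM56, an antiviral ligase grouped here with the NHL proteins for its related C-terminal repeats, had levels of 7.31, 7.24 and 7.22 in SW480 against 6.47, 6.34 and 6.37 in SW620. Its SW620 arrays were all lower, by 1.82-fold on average (-0.86, standard error 0.0820). The remaining measured NHL gene, TRIM3, had means of 3.97 and 3.98, below the median feature in both lines. Thus 3 of 4 measured NHL genes fell and 0 rose, where 19.5% of all genes were lower. The median of the 4 was -0.89, beside 0.0132 for all genes. The 3 that fell had means above the median feature, where 49.8% of all genes were called in either direction.

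The PRY-SPRY subfamily, whose C-terminal domain binds other proteins and, in some members, viral or antibody targets, held calls in both directions. Of 29 measured members 6 rose, 5 fell and 18 did not pass, with a median of 0.0935. The share called was near the 35.6% of all genes. TRIM38, a regulator of innate immune signalling, rose most. Its level was 4.87, 4.88 and 4.69 in SW480 and 6.50, 6.60 and 6.49 in SW620, so that every SW620 array was above every SW480 array. This was a 3.29-fold higher signal (1.72, standard error 0.0879, limma adjusted p = 6.42e-09, n = 3 per line). TRIM5, a restriction factor that recognises retroviral capsids, read 4.02, 4.04 and 4.10 in SW480 and 5.30, 5.39 and 5.18 in SW620. It was 2.36-fold higher (1.24, standard error 0.0862), from an SW480 mean of 4.05 that lies just below the median feature. TRIM21, the cytosolic antibody receptor also known as the autoantigen Ro52, read 4.65, 4.27 and 4.27 in SW480 and 5.38, 5.28 and 5.11 in SW620. The arrays did not overlap, and it was 1.81-fold higher (0.85, standard error 0.115). TRIM26, TRIM10 and TRIM68 rose by less, by 0.55, 0.35 and 0.29.

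TRIM16, a PRY-SPRY protein without a RING domain that acts on damaged lysosomes, fell 2.24-fold. Its SW480 arrays were spread over 5.05, 5.43 and 5.63, and its SW620 arrays lay close together at 4.22, 4.25 and 4.15 (-1.16, standard error 0.125). The gene has a near copy, TRIM16L, whose transcripts its feature may also read. TRIM7, which binds the glycogen primer glycogenin, read 4.31, 4.04 and 4.46 in SW480 and 3.28, 3.38 and 3.22 in SW620 (-0.98, standard error 0.107). All its SW620 arrays were below the 25th percentile feature (3.53), so this 1.97-fold fall rests on a level near the floor. TRIM4, a ligase of the RNA sensor RIG-I, fell by 0.70, and TRIM15, a focal adhesion protein, by 0.62.

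**Figure D2:**
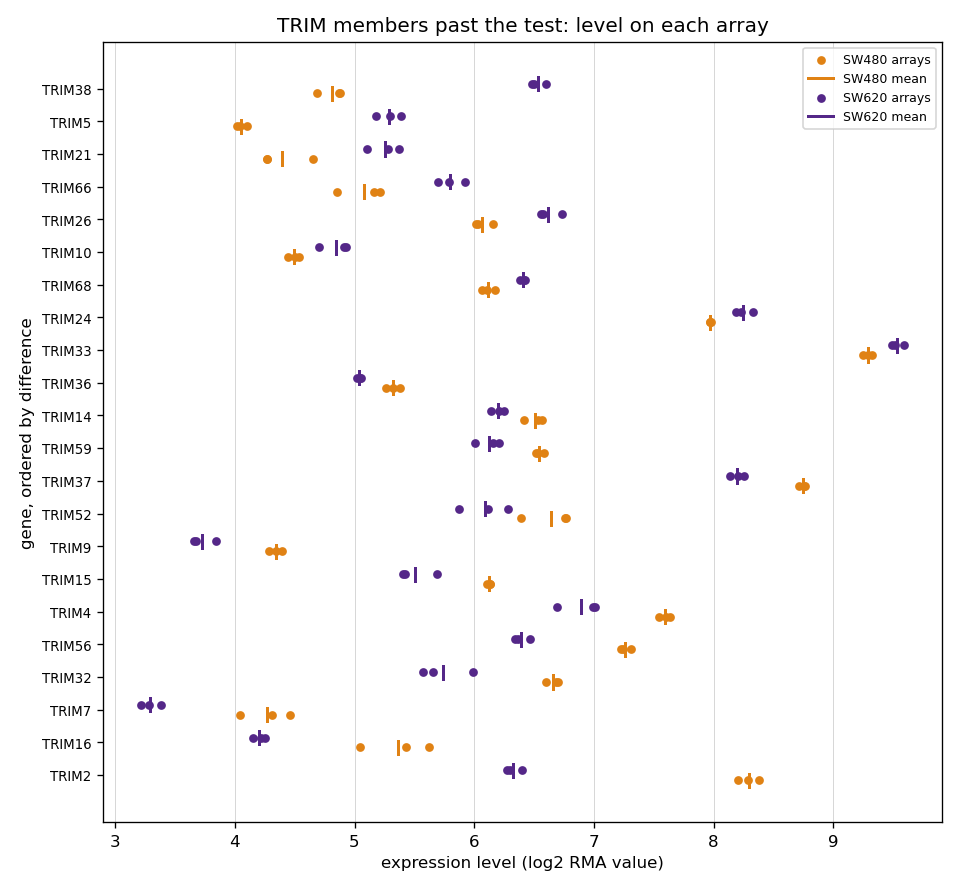
Level of the 22 TRIM genes past the test (x axis, log2 RMA value) on each array, with genes on the y axis ordered by difference. Orange points are SW480 arrays and purple points SW620 arrays, and vertical bars are means; for each gene the arrays of the lines do not overlap, with the widest gap at TRIM2 and TRIM38.

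Genes linked to interferon formed a list of 9, of which 8 were measured: 4 rose (TRIM38, TRIM5, TRIM21 and TRIM26), 2 fell (TRIM56 and TRIM14) and 2 did not pass, where 16.0% of all genes were higher and 19.5% lower. The median was 0.32, beside 0.0132 for all genes. Of the 8, 6 had SW480 means and 7 had SW620 means above the median feature, where 49.8% of all genes were called in either direction. This list was chosen with earlier results of these data known. TRIM22, strongly induced by interferon in many cells, had means of 3.39 and 3.48, below the 25th percentile feature in both lines. TRIM25, which activates RIG-I, differed by -0.0720 (95% interval -0.26 to 0.12, means 8.28 and 8.21). The call of TRIM14 rests on SW480 replicate 2, without which it differed by -0.28 at a limma adjusted p of 0.0540. Among 14 measured innate sensing genes that TRIM proteins act on, 2 rose and 2 fell, beside 35.6% of all genes called, with a median of -0.0892. Of the 14, 13 had SW480 means and 12 had SW620 means above the median feature, where 49.8% of all genes were called. The adaptor TRAF3 fell by 0.76 and the interferon regulator IRF3 by 0.37, while the kinase adaptor TAB2 rose by 0.63 and the signalling platform MAVS by 0.55.

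The PHD-bromodomain subfamily reads histone marks and regulates transcription. Of its 4 measured members 3 rose and 0 fell, with a median of 0.26, where 16.0% of all genes were higher. All 4 had means above the median feature, where 49.8% of all genes were called in either direction. Of the 3 calls, 2 were lost in some of the fits given here. TRIM66, best known from testis, rose most, from 4.85, 5.17 and 5.21 in SW480 to 5.79, 5.69 and 5.92 in SW620 (0.73, standard error 0.108). The groups did not overlap. TRIM24, a coregulator of nuclear receptors, and TRIM33, a ligase of SMAD4, rose by 0.28 and 0.25, which is 1.21-fold and 1.19-fold. Without SW620 replicate 2 TRIM24 differed by 0.24 and lost its call (limma adjusted p = 0.0670). TRIM33 lost its call on leaving out any 1 array other than SW620 replicate 3, with differences of 0.22 to 0.27 and an adjusted p between 0.0547 and 0.0913. With cyclic loess and all arrays TRIM33 differed by 0.19 (limma adjusted p = 0.0844).

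TRIM28, the corepressor that zinc finger proteins recruit to silence retroelements, did not pass. It differed by -0.10 (95% interval -0.28 to 0.08), with levels of 9.54, 9.48 and 9.44 in SW480 and 9.40, 9.29 and 9.46 in SW620. Of 11 measured genes that act with TRIM28 in silencing, 5 rose, 3 fell and 3 did not pass, with a median of -0.0270. All 11 were above the median feature, where 49.8% of all genes were called. The chromatin remodeller CHD3 rose by 1.16, the heterochromatin protein CBX5 by 0.85 and the deacetylase HDAC2 by 0.64, whereas MPHOSPH8, a subunit of the HUSH silencing complex, fell by 0.93.

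In the remaining TRIM classes the calls among genes with a TRIM symbol were all lower in SW620. Across all genes 19.5% were lower and 16.0% higher. The microtubule-binding TRIM genes MID1 and MID2, which carry other symbols, are not counted here. MID1 rose by 1.60 and MID2 fell by 1.68. Of 7 measured COS-domain genes, most of which bind microtubules, 0 rose and 2 fell. TRIM9, a ligase of axon guidance, fell by 0.62 to an SW620 mean of 3.73, below the median feature, and TRIM36 fell by 0.28, a call lost without SW480 replicate 1 (-0.25, limma adjusted p = 0.0548). Among 4 measured genes with a transmembrane, ARF, MATH or filamin domain, TRIM37, which limits centriole assembly and is mutated in mulibrey nanism, fell by 0.55 (8.75 and 8.20). The membrane-anchored TRIM59 fell by 0.42, and the other two of these 4 did not pass. Of 8 measured genes without a C-terminal class 1 fell, TRIM52, by 0.55.

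TRIM proteins that carry other symbols gave a contrast within 1 subfamily. MID1 and MID2 are close paralogues that bind microtubules, and MID1 is mutated in Opitz syndrome. MID1 rose from a mean of 6.47 ± 0.00500 (SD, n = 3) in SW480 to 8.07 ± 0.0635 in SW620, a difference of 1.60, and MID2 fell from 6.07 ± 0.11 to 4.39 ± 0.18, a difference of -1.68. PML, which builds the nuclear bodies named after it, rose by 0.55. The other 3 measured genes of this list did not pass.

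FBXL20, known from neurons for its action on the vesicle protein RIM1, had the largest difference among F-box genes. Its levels were 7.58, 7.69 and 7.59 in SW480 and 6.40, 6.74 and 6.57 in SW620. Each SW620 array lay below each SW480 array, a 2.07-fold lower signal (-1.05, standard error 0.0978, limma adjusted p = 2.14e-06, n = 3 per line). FBXL16 fell by 0.78, from 5.54, 5.29 and 5.13 to 4.56, 4.53 and 4.53. FBXL17, which removes wrongly paired BTB proteins, fell by 0.66 and FBXL13, a centrosomal F-box protein, by 0.61. The antisense RNA FBXL19-AS1 fell by 0.67 while FBXL19 itself differed by -0.0108 (95% interval -0.19 to 0.17).

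Among the 59 members with FBXL, FBXO or FBXW symbols, the 5 that rose were of the FBXO family. FBXO4, a receptor for cyclin D1, rose from 5.50, 5.20 and 5.33 in SW480 to 6.28, 6.12 and 6.08 in SW620. The arrays did not overlap, and the difference was 0.81 (standard error 0.0980, limma adjusted p = 2.29e-05, 1.76-fold, n = 3 per line). FBXO5, also called EMI1, which holds back the anaphase-promoting complex before mitosis, rose from 7.02, 6.91 and 6.93 to 7.67, 7.37 and 7.62 (0.60, standard error 0.0962). FBXO30 rose by 0.57, and FBXO45 and FBXO32 by 0.30 and 0.31. The last-named are less stable: FBXO45, which pairs with the ligase MYCBP2 at synapses, had an adjusted p of 0.0510 in limma without SW480 replicate 3. FBXO32, the muscle atrophy ligase atrogin-1, had an adjusted p of 0.0973, 0.0900 and 0.0816 in limma without SW480 replicate 1, SW480 replicate 2 and SW620 replicate 3.

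Among the F-box genes that fell, FBXW11 encodes a beta-TrCP protein, which degrades beta-catenin and the inhibitor of NF-kappaB. It read 7.24, 7.38 and 7.42 in SW480 and 6.76, 6.72 and 6.87 in SW620 (-0.56, standard error 0.0870). Its paralogue BTRC differed by -0.0785 and did not pass (means 7.33 and 7.26). FBXO38, a receptor for the checkpoint protein PD-1, fell by 0.56 and FBXO11, a receptor for BCL6, by 0.45. FBXO41, a neuronal F-box protein, fell by 0.41. FBXW4 fell by 0.43 with SW620 arrays spread over 3.92, 4.34 and 4.50; without SW620 replicate 1 the difference was -0.26 (limma adjusted p = 0.0718) and without SW480 replicate 3 it was -0.38 (adjusted p = 0.0747).

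**Figure D3:**
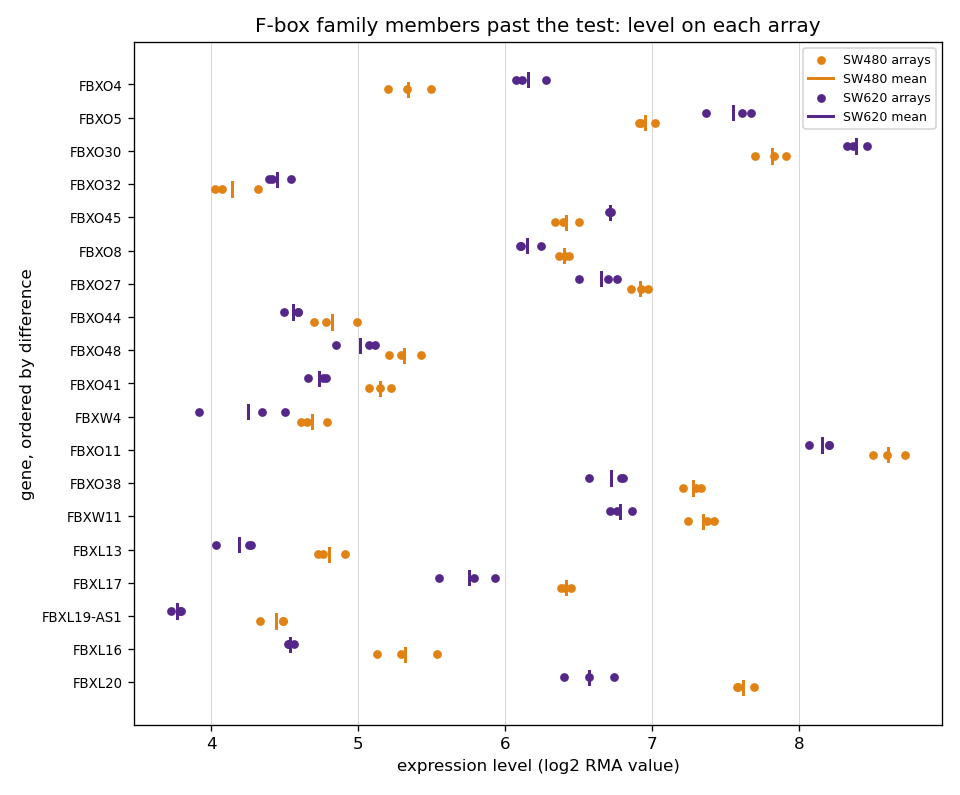
Level of the 19 called members with FBXL, FBXO or FBXW symbols (x axis, log2 RMA value) on each array, with genes on the y axis ordered by difference. Orange points are SW480 arrays, purple points SW620 arrays and vertical bars their means; the 5 genes at the top were higher in SW620 and the 14 below them lower.

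Smaller calls of the FBXO family held in part of the array sets only. FBXO8 (-0.25) had a limma adjusted p between 0.0515 and 0.0941 without any array other than SW620 replicate 2. FBXO27 (-0.26) lost its call without any array other than SW620 replicate 1, with adjusted p from 0.0524 to 0.162. FBXO44 (-0.26) lost it without any array other than SW480 replicate 2, with adjusted p from 0.0703 to 0.183. FBXO48 (-0.30) had an adjusted p of 0.0592, 0.125 and 0.126 without SW480 replicate 1, SW480 replicate 2 and SW620 replicate 2. FBXO27 and FBXO44 belong to the F-box proteins that bind the sugar chains of glycoproteins. Of 4 measured genes of that group 2 fell and 0 rose, where 19.5% of all genes were lower. The other two did not pass and lay on opposite sides of 0: FBXO2 differed by -0.25 (limma adjusted p = 0.0890) and FBXO6 by 0.15 (adjusted p = 0.170). In all, 11 of the 41 called members lost the call in at least 1 such fit, and 30 kept it.

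Of 9 listed F-box genes with a part in the cell cycle, 5 were measured. Of these 2 rose (FBXO4 and FBXO5), 1 fell (FBXW11) and 2 did not pass. All 5 had means above the median feature, where 49.8% of all genes were called. None of 5 measured genes of the clock, iron and mitochondrial group passed limma's test, at an adjusted or an unadjusted p below 0.05. Here FBXL5, the iron-sensing receptor for IREB2, differed by -0.13 (95% interval -0.34 to 0.07), and FBXO7, a Parkinson disease gene of mitophagy, by 0.17 (-0.00983 to 0.35). Of 6 measured ligases best known from muscle, FBXO32 was the only call, where 35.6% of all genes were called. In each line 2 of the 6 had means above the median feature, and of all genes below it 10.5% were called. Skeletal muscle markers included 2 genes that fell, TTN and DES, while MYOD1 (3.72 and 3.76) and MYOG (3.94 and 3.94) were below the median feature in both lines.

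The 79 members that did not pass differed by -0.25 to 0.32, and their 95% intervals lay between -0.49 and 0.62. A 2-fold difference was therefore outside the interval of each of these members, as far as the spread between these arrays goes. TRIM47 came closest to the threshold (0.27, limma adjusted p = 0.0521), and TRIM33 had the smallest difference of those past it (0.25).

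A list of SCF core, neddylation and COP9 genes, which also holds cullins of other ligases, had 27 of 36 genes measured. Of these 6 rose, 1 of them CUL4A, a scaffold that takes no F-box protein, 4 fell and 17 did not pass. The median was 0.10, and the share called was near the 35.6% of all genes. In each line 26 of the 27 had means above the median feature, where a larger share of all genes, 49.8%, was called. NAE1, a subunit of the enzyme that activates NEDD8 for attachment to cullins, rose 2.26-fold, from a mean of 10.0 ± 0.0240 (SD, n = 3) to 11.2 ± 0.0247. UBE2R2, an ubiquitin-conjugating enzyme of SCF ligases, rose by 0.60. COPS6, a subunit of the COP9 signalosome that removes NEDD8, fell 2.08-fold, from 8.53 to 7.47. SKP1, the adaptor for F-box proteins in SCF ligases, fell by 0.59, from 6.21 to 5.62. The scaffold CUL1 differed by -0.0676 (95% interval -0.24 to 0.11). Of 5 measured F-box genes with other symbols, KDM2A rose by 0.28 and 4 did not pass.

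**Figure D4:**
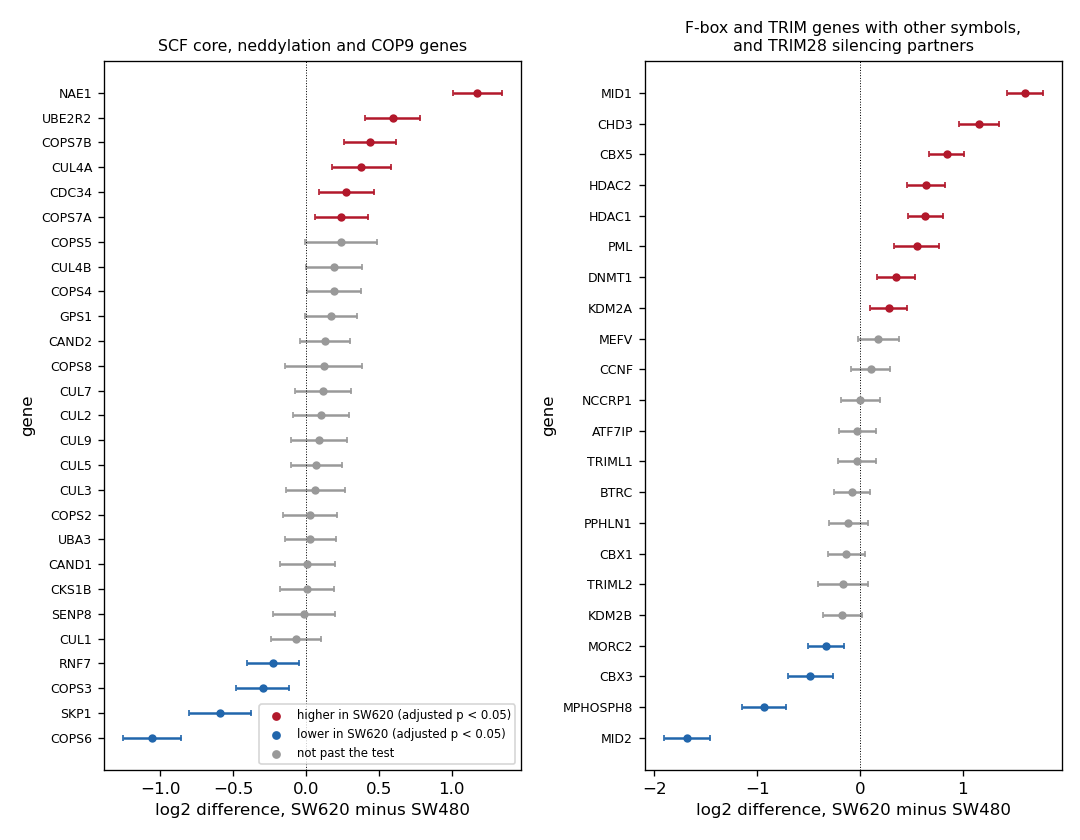
Log2 difference (SW620 minus SW480, x axis) with its 95% interval for 27 genes of the SCF core, neddylation and COP9 (left) and for 22 F-box and TRIM genes with other symbols and silencing partners of TRIM28 (right), with genes on the y axis. Red was higher, blue lower and grey not past an adjusted p of 0.05; MID1 and MID2 lie at opposite ends of the right panel, at 1.60 and -1.68.

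Of 24 measured transcripts of known F-box substrates 7 rose, 7 fell and 10 did not pass, with a median of 0.0450. All lay above the median feature, where 49.8% of all genes were called. JUN, a subunit of AP-1, rose by 1.96 and BCL6, a transcriptional repressor, by 0.66. The Notch receptor NOTCH1 fell by 1.49 and cyclin D1, CCND1, 2.29-fold (means 8.61 and 7.41). F-box proteins act on protein stability, which these arrays do not measure.

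Members were also compared by where they lie, with the order of genes taken from the human gene table (GRCh38.p14) after the values had been seen and without a test. Chromosome 5 held 9 members, of which 1 rose and 6 fell, where 28.2% of all 641 genes tested on it were lower. FBXL7 (-0.0311, not past) and FBXO4, the 1 member that rose, come first in order. The boundary was set at FBXO4, so that 0 members higher beyond it follows from this choice. Of the 7 beyond it 6 fell, with a median of -0.56 for the 7. They were FBXL17, TRIM36, FBXO38, FBXW11, TRIM7 and TRIM52, and TRIM41 did not pass (-0.15). TRIM36 loses its call without SW480 replicate 1 (limma adjusted p = 0.0548), which leaves 5. Of all 546 genes tested beyond FBXO4 on this chromosome 32.4% were lower and 17.6% higher, with a median of -0.0465. Of the 95 genes up to FBXO4 4.21% were lower and 35.8% higher. On other chromosomes 19.1% of genes were lower. Lower calls were thus more frequent beyond FBXO4 among all genes too, and the median of the 7 members lay further from 0. The 546 genes were not matched to the members by level. Among all genes tested, 49.8% of those at or above the median feature were called, against 10.5% of dimmer ones.

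Chromosome 6 held 10 members, of which 5 rose and 1 fell, where 23.9% of all 760 genes tested on it were higher and 10.5% lower. Calls of both signs were neighbours there. TRIM15, which fell by 0.62, lies between TRIM10 and TRIM26, which rose by 0.35 and 0.55. TRIM15 and TRIM10 had 8 features each, and several of these held identical values, so they are not separate measurements. With every feature tested separately in limma, all 8 of TRIM15 passed (-0.69 to -0.55), while of TRIM10 1 of 8 passed (adjusted p = 0.0317) and 7 differed by 0.30 to 0.35 with an adjusted p of 0.0534 to 0.146. TRIM27 also had 8 features, with differences from 0.12 to 0.36. Chromosome 11 held 16 members, of which 4 rose and 0 fell, against 22.2% of 817 genes higher and 13.0% lower. These 4 were TRIM21, TRIM68, TRIM5 and TRIM66, and the neighbours of TRIM5 in the cluster, the read-through TRIM6-TRIM34 (0.17) and TRIM22 (0.0856), did not pass. Both lay near the floor, below the 25th percentile feature (3.53) in each line. TRIM6-TRIM34 had means of 3.24 in SW480 and 3.41 in SW620, and TRIM22 of 3.39 and 3.48.

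**Figure D5:**
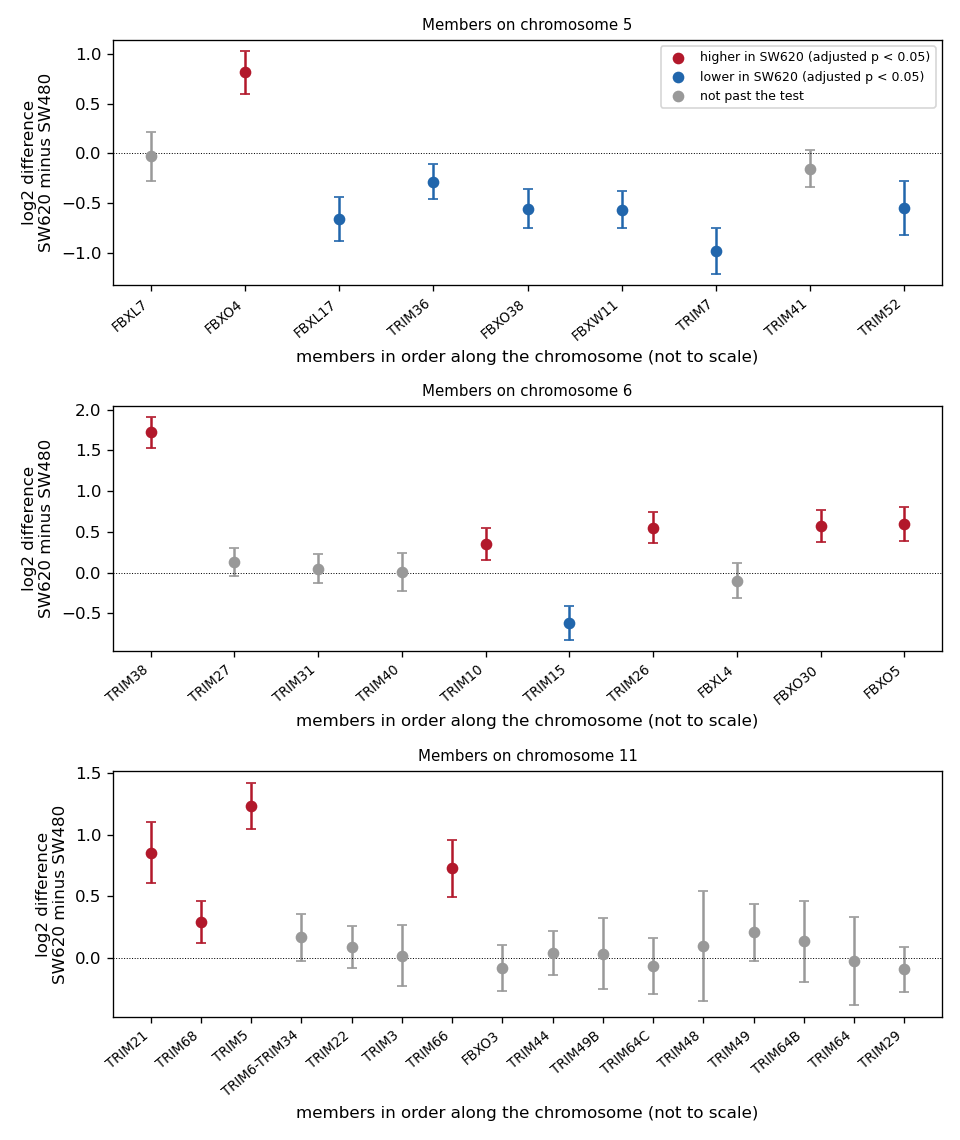
Log2 difference (SW620 minus SW480, y axis) with its 95% interval for members on chromosomes 5, 6 and 11, in gene order along the x axis and not to scale. Red was higher, blue lower and grey not past an adjusted p of 0.05; on chromosome 5 the 7 members after FBXO4 all lie below 0, and 6 of them passed.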

How the data were processed

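Total RNA of the spheroid cultures was measured on 6 arrays. The authors deposited log2 expression values. Per the submitters' processing notes, RMA and Partek were used, with no version or setting named there. The base of the logarithm was read from the range of the values. RMA can understate folds of dim genes.

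Of 53616 features 16098 carry 1 gene symbol in the platform annotation, several symbols occurred for 0 and 37518 are unnamed here. Symbols were matched by gene ID to a human gene table (16098 of 16098). The highest-mean feature stood for each of 14884 genes (779 had several). No filter was applied. SW620 was set against SW480 by lmFit and eBayes of limma 3.58.1 under R 4.3.3, two-sided; p-values of all genes were adjusted together (Benjamini-Hochberg) and called below 0.05. The fit was tested on simulated data. Named with all arrays were called members differing by at least 0.8, further called members by difference, and up to 4 changed genes per list; members named beyond this rule, among them TRIM66, FBXO5, FBXW11, FBXL16, TRIM28 and FBXW4 with all arrays, were chosen after their values were seen. Members and lists were chosen with earlier results of these data known. The numbers of replicates did not pair the samples. The number of arrays limits the precision.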

Additional observations from a re-analysis of the deposited data

How the results depend on the processing

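No called member changed direction under any of the alternatives run, and the 10 called members with a difference of at least 0.8 kept their call in each fit that tested them (a filter at the median feature drops TRIM7). Counts of the smaller calls moved. Testing every feature separately left 9 F-box genes lower. Requiring 1.2-fold with treat left 3 F-box genes higher and 7 lower, and 5 TRIM genes higher. At an adjusted p below 0.01 there were 3 F-box genes higher and 9 lower. Leaving out each array in turn gave 4 to 5 F-box genes higher, 10 to 12 lower, 7 to 12 TRIM genes higher and 12 to 14 lower. Centring on the 75th percentile gave 5 and 11 F-box genes and 11 and 13 TRIM genes, higher and lower. With the replicate number as a block, 13 F-box genes were lower and 10 TRIM genes higher; FBXO27 lost its call (adjusted p = 0.0568 in limma) and TRIM74 gained one. Deviations of same-numbered arrays correlated with r of -0.00889, -0.0234 and -0.0119 across genes, so the numbers did not pair the arrays.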

Other observations

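Some members stood beside genes that differed in the same direction, and others beside genes that differed in the opposite direction. How often either held among all members or all genes was not counted, so the examples below do not show how common it was. On chromosome 6 TRIM38 (1.72) lies between CARMIL1, a regulator of actin capping, which rose by 1.94, and the iron regulator HFE, which rose by 0.89. On chromosome 5 FBXO4 (0.81) follows RIMOC1, which rose by 0.62, and precedes GHR, the growth hormone receptor, which differed by -0.0490 and did not pass. On chromosome 17 TRIM37 (-0.55) lies between the recombination gene RAD51C, which differed by -0.18 and did not pass, and the kinetochore gene SKA2, which fell by 0.96. On chromosome 4 TRIM2 (-1.97) lies between FHDC1, which rose by 1.08, and the pseudogene ANXA2P1, which fell by 0.25. TRIM66 (0.73) lies between STK33 and DENND2B, which fell by 0.52 and 0.40. These are the nearest measured genes in order, chosen after the values were seen.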
